A study of Mus musculus with 4 samples.

Results

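The genes that encode the subunits of the constitutive 26S proteasome were followed in single-cell transcriptomes of mouse vaginal epithelium with and without the ovaries. Members were all gene rows named Psma, Psmb, Psmc or Psmd followed only by digits, without the inducible subunits Psmb8 and Psmb9. This gave 36 of 25071 gene rows: 8 alpha and 8 beta genes of the 20S core, 6 ATPase genes and 14 non-ATPase genes of the 19S regulatory particle. Of these, 35 had enough counts to be tested, and the exception, Psma8, had 1 unique molecular identifier (UMI, a tag that marks a single captured mRNA molecule) in all libraries together.

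Drop-seq, which captures single cells in droplets with barcoded beads and reads their mRNA from the 3′ end, was run on 4 libraries of vaginal epithelium from C57BL/6 mice. The labels call 2 of them WT, from mice with ovaries, and 2 of them OVX, from surgically ovariectomised mice. Every library was a pool of 5 mice, and the series text speaks of duplicate runs, so it is not clear whether the 2 libraries of a group came from different pools. If they did not, the p-values given here describe technical spread alone. No genetic alteration, age, cycle stage or time since surgery is given in the sources used here.

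The libraries held 5845107 and 1934634 UMIs (WT libraries 1 and 2) and 991112 and 1684967 UMIs (OVX libraries 1 and 2), and 2979, 1987, 1573 and 1907 cells were kept. Any pair of libraries shared between 0 and 5 kept cell barcodes. Median depth was 1597 and 799 UMIs per cell in WT against 435 and 738 in OVX. The median mitochondrial share of a cell's UMIs was 4.00% and 3.85% in WT against 8.97% and 9.69% in OVX, and the nuclear RNA Malat1 took 0.339% and 0.467% against 2.73% and 1.96%. All 12 basal keratinocyte markers were detected in every library. Levels are given as UMIs per 1000000 UMIs of the library or gate (CPM). The basal list summed to 43907 and 25667 CPM in WT against 8583 and 9109 in OVX. The suprabasal list summed to 7992 and 9077 CPM in WT against 597 and 561 in OVX, and the luminal list to 434 and 426 against 1586 and 1477. Cells with at least 2 UMIs of cell cycle genes made up 63.6% and 45.9% of the WT libraries against 4.20% and 11.0% of the OVX libraries. Fibroblast markers summed to 1.37 and 26.9 CPM in WT and to 210 and 193 in OVX, and macrophage and dendritic markers to 123 and 133 against 857 and 480.

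The proteasome is the protease that degrades proteins tagged with ubiquitin. The alpha subunits form the outer rings of its barrel-shaped 20S core and control entry, the beta subunits form the inner rings and hold the proteolytic sites, the ATPases of the 19S particle unfold the substrate, and the non-ATPase subunits bind ubiquitin, remove it and hold the particle together. The transcription factors NRF1 (Nfe2l1) and NRF2 (Nfe2l2) activate proteasome genes through antioxidant response elements in their promoters. In stratified epithelia such as that of the vagina, cells divide in the basal layer and are shed from the surface, and oestrogen from the ovary drives this growth.

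The promoters of 4 members are shown because these genes mark the ends of the range of log2 fold changes described below: Psmb6, Psmd9 and Psmc4 with the 3 lowest estimates in OVX, and Psma4 with the highest. RefSeq (GRCm38.p6) gave promoters for 29 of the 36 members, 31 promoters in all, each from 250 bases before to 50 bases after a gene start. Capitals mark matches to TGACNNNGC, the core of the antioxidant response element, or to CCAAT, searched on both strands. The sequences lie at chr11:70525107-70525406 (Psmb6), chr5:123227940-123228239 (Psmd9) and chr9:54950609-54950908 (Psma4) on the plus strand and at chr7:28050043-28050342 on the minus strand (Psmc4), and are written 5′ to 3′ along the gene.
Psmb6: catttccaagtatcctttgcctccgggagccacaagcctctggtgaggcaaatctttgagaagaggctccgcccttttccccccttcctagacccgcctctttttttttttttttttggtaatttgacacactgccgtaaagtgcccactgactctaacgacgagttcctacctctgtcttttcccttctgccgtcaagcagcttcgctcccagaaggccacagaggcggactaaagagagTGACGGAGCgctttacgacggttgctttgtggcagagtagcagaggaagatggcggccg
Psmd9: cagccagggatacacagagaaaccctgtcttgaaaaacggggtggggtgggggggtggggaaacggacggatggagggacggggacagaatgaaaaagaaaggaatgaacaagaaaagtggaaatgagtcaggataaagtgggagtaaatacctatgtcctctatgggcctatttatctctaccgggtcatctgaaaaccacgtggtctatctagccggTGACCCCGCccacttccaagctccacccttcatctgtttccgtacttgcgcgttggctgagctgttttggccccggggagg
Psmc4: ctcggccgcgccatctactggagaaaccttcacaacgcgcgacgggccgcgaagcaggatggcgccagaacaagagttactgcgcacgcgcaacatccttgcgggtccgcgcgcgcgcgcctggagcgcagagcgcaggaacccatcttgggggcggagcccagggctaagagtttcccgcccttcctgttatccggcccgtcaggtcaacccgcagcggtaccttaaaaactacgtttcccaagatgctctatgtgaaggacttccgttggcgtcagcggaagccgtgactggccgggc
Psma4: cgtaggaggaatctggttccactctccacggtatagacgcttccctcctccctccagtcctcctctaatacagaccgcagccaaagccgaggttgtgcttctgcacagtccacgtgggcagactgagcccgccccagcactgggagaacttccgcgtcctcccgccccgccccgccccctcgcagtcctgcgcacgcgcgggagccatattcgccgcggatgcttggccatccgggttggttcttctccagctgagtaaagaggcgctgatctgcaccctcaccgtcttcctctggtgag
The match to TGACNNNGC began 9 bases before the gene start in Psmb6 and 31 bases before it in Psmd9, and Psmc4 and Psma4 held neither motif. In all, 5 of 31 member promoters (16.1%; those of Psmb5, Psmb6, Psmc6, Psmd9 and Psmd12) held TGACNNNGC against 12.4% of the 32851 mouse promoters of the same length, and 11 (35.5%) held CCAAT against 37.4%. The TATA box TATAAA, which overlaps neither of them, was in 3 (9.68%) against 13.6%. These shares are descriptions of the letters in this window and say nothing of binding.

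Taken as a sum, proteasome subunit mRNA made up more of the transcriptome in epithelium from mice with ovaries. The 36 members together held 9499 and 10794 CPM in the WT libraries and 6861 and 6040 in the OVX libraries. The groups did not overlap. The means were 10146 ± 916 in WT and 6450 ± 580 in OVX (SD, n = 2 libraries per group), a fold of 1.57. No p-value is given for the sum. It is a share of all UMIs, so it moves with what else the cells hold: with mitochondrial genes, Malat1 and Neat1 taken out of the total, the fold was 1.45.

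All 4 classes of subunit lay lower in OVX. The alpha genes summed to 2948 and 2985 CPM in WT and to 2190 and 2122 in OVX, a fold of 1.38. The beta genes stood at 2048 and 2881 against 1486 and 1051, a fold of 1.94 that rests in part on WT library 2: with WT library 1 alone it was 1.61. The ATPases stood at 1514 and 2206 against 1379 and 1293, a fold of 1.39. The non-ATPases stood at 2989 and 2722 against 1805 and 1574, a fold of 1.69, and of 1.77 with WT library 1 alone. Neither OVX library reached a WT library in any class, although WT library 1 lay close to the OVX libraries for the ATPases.

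**Figure D1:**
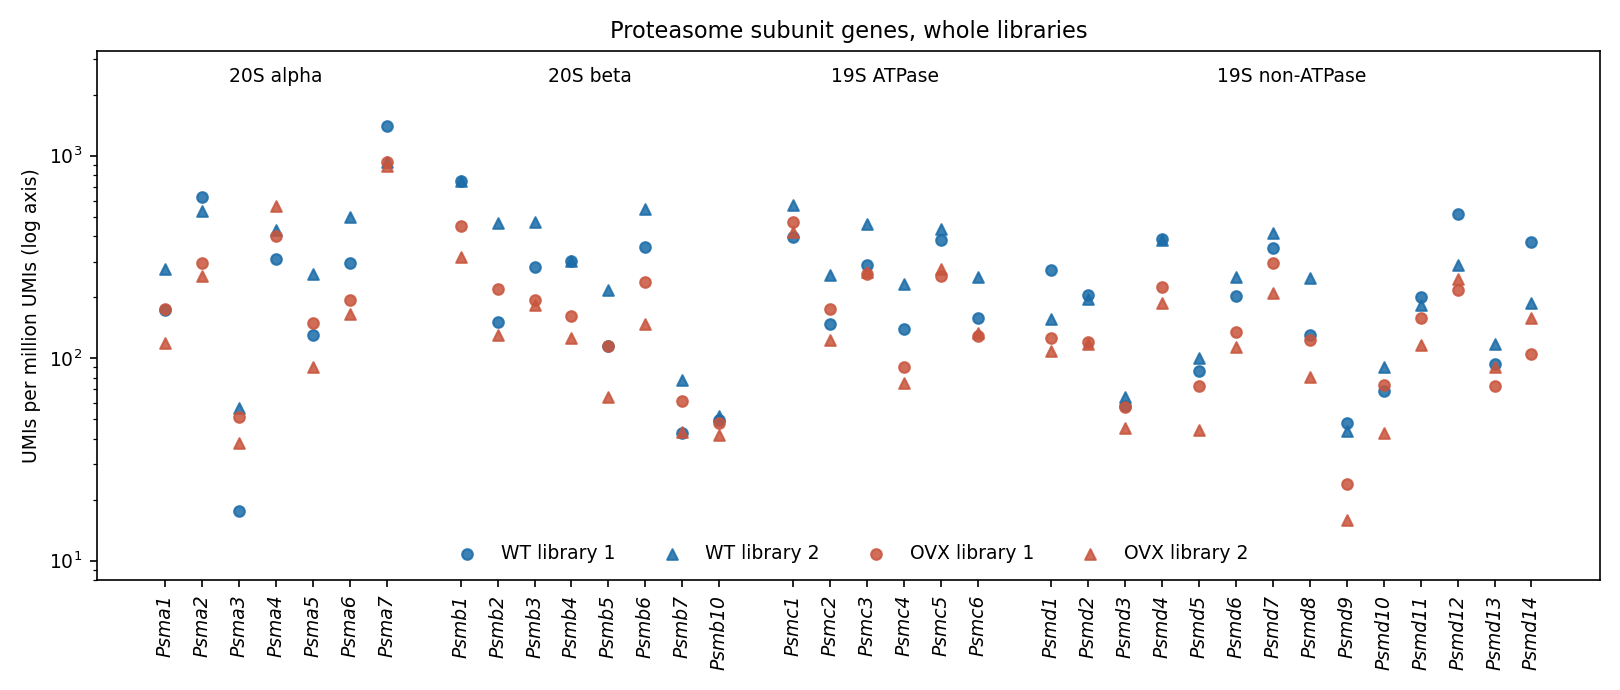
Level of each of the 35 tested proteasome subunit genes in whole libraries, in CPM on a log axis. Circles and triangles are libraries 1 and 2, WT in blue and OVX in red. For 26 of the 35 genes both red symbols lie below both blue ones, and for none do both lie above. The blue circle and triangle are far apart for genes such as Psma3, Psmb2 and Psmd14.

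No member passed the test in whole libraries. With edgeR's quasi-likelihood test and Benjamini-Hochberg adjustment over 11495 genes, 0 of 35 members were under an adjusted p of 0.05, against 2.52% of all genes called lower in OVX and 5.11% called in either direction. At an unadjusted p under 0.05 there were 13 members, all lower in OVX, against 10.0% of all genes. DESeq2 called 1 member lower (background 3.06%). The log2 estimates were below 0 for 33 of 35 members, against 51.4% of all genes tested. Both OVX libraries lay below both WT libraries for 26 members and above for 0, against 21.2% of all genes lying below. The median log2 fold change of the members was -0.86, with a range from -1.38 to 0.26, and that of all genes -0.03. Under scaling by total UMIs or by the upper quartile the median of all genes was 0.11 or 0.13 and that of the members -0.70 or -0.71.

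**Figure D2:**
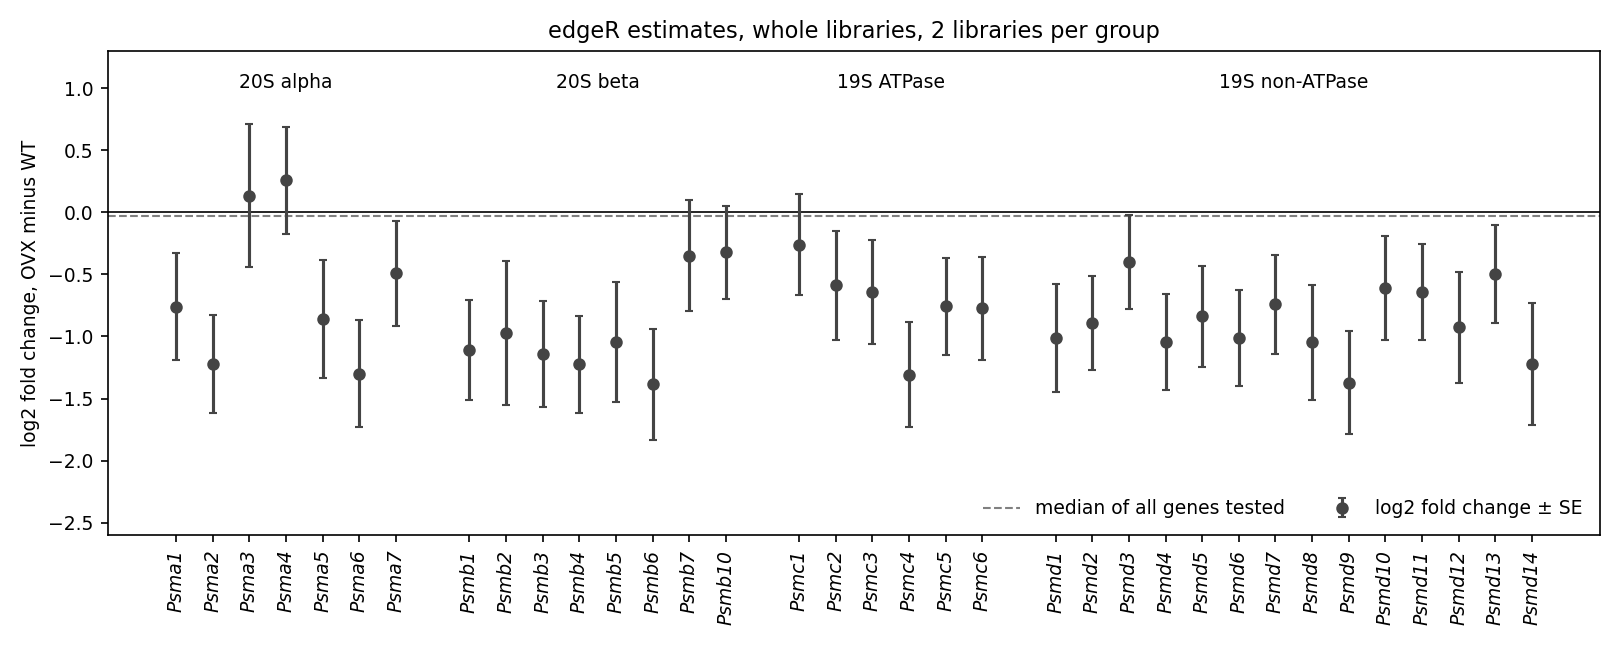
Log2 fold change of each tested member, OVX minus WT, as edgeR estimated it from 2 libraries per group, with bars of 1 SE. The dashed line is the median of all genes tested, -0.03. Estimates of 33 members lie below 0, and those of Psma3 and Psma4 above.

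The beta genes include the 3 catalytic subunits of the constitutive core. Psmb5 carries the chymotrypsin-like site. It had 115 and 217 CPM in WT and 115 and 64.1 in OVX, so that WT library 1 and OVX library 1 were level to 3 digits. Its log2 fold change was -1.04 ± 0.48 (SE; edgeR adjusted p = 0.275). Psmb6, with the caspase-like site, had 356 and 548 in WT and 238 and 147 in OVX. Both OVX libraries were below both WT libraries, with the lowest estimate of all members, -1.38 ± 0.45 (edgeR adjusted p = 0.131). DESeq2 placed Psmb6 past its threshold, at -1.47 with an adjusted p of 0.0367. Psmb7, with the trypsin-like site, differed from both. It had 42.5 and 78.2 in WT and 61.3 and 43.4 in OVX, which overlap (log2 fold change -0.35, edgeR adjusted p = 0.719). Leaving out WT library 2 turned its estimate to 0.07. Psmb10, the inducible counterpart of Psmb7, was nearly level at 49.2 and 51.8 in WT and 47.6 and 41.5 in OVX (-0.32, edgeR adjusted p = 0.685). On data thinned to the smallest library its estimate was 0.04. Psmb7 ends where Nek6 lies on the other strand, and Psmb10 where Gm16156 does. The strand setting of the counting is not known, so these counts are uncertain.

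Among the non-catalytic beta genes, Psmb4 had 303 in each WT library and 161 and 125 in OVX, a log2 fold change of -1.22 (edgeR adjusted p = 0.127). Psmb1 had 748 and 747 in WT and 451 and 318 in OVX. These 2 genes had the closest agreement between the WT libraries and a clear gap to OVX, and they were singled out after their values had been seen. Psmb2 and Psmb3, by contrast, were uneven within WT: Psmb2 had 151 and 467 in WT and 219 and 130 in OVX, and Psmb3 283 and 470 against 193 and 182. The median log2 fold change over the 8 beta genes was -1.08. For 6 of them both OVX libraries lay below both WT libraries, against 21.2% of all genes. Psmb5 is 1 of these 6 by only 115.4 CPM in WT library 1 against 115.2 in OVX library 1. Several of these genes have copies: when the final 500 bases of each transcript were cut into 50-base words, 63.2% of the words in Psmb3, 51.2% in Psmb5, 5.54% in Psmb1 and 4.43% in Psmb6 were found in other genes too, so their counts are uncertain. The deposited rows for pseudogenes of Psmb5, Psmb6 and Psmb7 held few UMIs, at most 52 in a library.

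The alpha genes were the most mixed class. Psma6 had 297 and 501 CPM in WT and 193 and 164 in OVX, with no overlap (log2 fold change -1.30 ± 0.43, edgeR adjusted p = 0.143). Psma2 had 626 and 532 against 295 and 254, also without overlap (-1.22, edgeR adjusted p = 0.134). For Psma2 the 2 libraries of each group lay close together. Psma4 had the highest estimate of all members, with 310 and 429 in WT and 399 and 564 in OVX. The groups overlapped, and the log2 fold change was 0.26 (edgeR adjusted p = 0.793); without OVX library 2 it was -0.10. A share of 10.4% of the words at the end of the Psma4 transcript also occurs elsewhere, chiefly in Gm6542. Psma3 had 17.7 and 57.0 in WT and 51.3 and 37.9 in OVX (0.13, edgeR adjusted p = 0.927), and its sign turned to -0.47 without WT library 1. It ends where 3110056K07Rik lies on the other strand, and the strand setting of the counting is not given in the sources used here. Psma7 had 1395 in WT library 1 and 931, 928 and 893 in the other 3 libraries. WT library 1 stood alone, and the other 3 libraries were nearly level; the log2 fold change was -0.49 (edgeR adjusted p = 0.571). Psma2, Psma4 and Psma7 were also picked after their values had been seen. Psma1 and Psma5 overlapped between groups, and 62.5% of the words at the end of Psma5 occur in other genes too. The groups overlapped for Psma3 and Psma4 as well. The median over the 7 tested alpha genes was -0.76. For 3 of them both OVX libraries lay below both WT libraries, against 21.2% of all genes. Psma7 is 1 of these 3 by only 931 CPM in WT library 2 against 928 in OVX library 1.

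The ATPases form the ring that unfolds substrates. Psmc4 had 140 and 231 CPM in WT and 90.1 and 75.1 in OVX (log2 fold change -1.31 ± 0.43, edgeR adjusted p = 0.134). Psmc1 had 395 and 570 against 468 and 418, which overlap (-0.26, edgeR adjusted p = 0.772), and 20.8% of the words at its end are shared with other genes. Psmc3 had 290 and 461 against 262 and 267, Psmc5 384 and 435 against 255 and 277, and Psmc6 158 and 251 against 129 and 134. In these 3 genes the OVX libraries were close together below both WT libraries. Psmc3 ends where Slc39a13 lies on the other strand. Psmc2 overlapped, with 147 and 258 against 175 and 123. Over the 6 genes the median was -0.70. For 4 of them both OVX libraries lay below both WT libraries, against 21.2% of all genes.

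The non-ATPase genes were the most uniform class. Of the 14, 13 had both OVX libraries below both WT libraries, against 21.2% of all genes. All 14 estimates were below 0 (median -0.91), against 51.4% of all genes. Psmd9, an assembly chaperone of the 19S base and no subunit of the finished particle, had 47.7 and 43.5 CPM in WT and 23.8 and 15.9 in OVX. This was the smallest adjusted p of any member (log2 fold change -1.37 ± 0.41, edgeR adjusted p = 0.110). Psmd5 and Psmd10 are base chaperones too. Psmd5 had 93.2 ± 9.58 in WT and 58.3 ± 20.2 in OVX (SD, n = 2), and Psmd10 had 68.6 and 90.7 against 73.9 and 42.8. Psmd10 was the one gene of the class that overlapped. Psmd3, a lid subunit, had 58.0 and 64.2 against 57.6 and 45.2, a narrow gap (-0.40, edgeR adjusted p = 0.615), and its estimate was 0.00 in cells of 500 to 1000 UMIs.

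The ubiquitin receptor Psmd4 had 386 and 383 in WT and 225 and 186 in OVX. Psmd2, a scaffold of the base, had 205 and 196 against 120 and 118. For both genes the gap between groups was wider than the spread within them (log2 fold changes -1.04 ± 0.39 and -0.89 ± 0.38; edgeR adjusted p = 0.182 and 0.241). The count of Psmd2 is uncertain, since 31.5% of the words at its end also occur in Gm5422. The deubiquitinating subunit Psmd14 had 375 and 187 against 105 and 157, so its WT libraries differed by a factor of 2.01. Psmd1 with 271 and 155 against 125 and 109, and Psmd12 with 513 and 288 against 217 and 246, shared that higher level in WT library 1. At the end of Psmd1, 56.8% of the words are shared with other genes, and Gm21972 overlaps it on the same strand.

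The 2 WT libraries differed from each other in opposite ways for different members. At more than 1.5-fold, 3 members (Psmd1, Psmd12 and Psmd14) were higher in WT library 1 and 14 in WT library 2. Between the OVX libraries, 7 members were more than 1.5-fold higher in library 1 and 0 in library 2. Which members passed the test therefore turned on the WT library used. Without WT library 1, edgeR called 7 members lower (Psma6, Psmb2, Psmb3, Psmb5, Psmb6, Psmc4 and Psmd8), against 6.44% of all genes. Without WT library 2 it called 6 (Psma2, Psmb4, Psmd1, Psmd9, Psmd12 and Psmd14), against 8.07% of all genes. The 2 sets had 0 genes in common. In these fits the lone WT library is taken to vary as the OVX libraries do. Without either OVX library 0 members were called by edgeR and 0 had an unadjusted p under 0.05, although 34 of 35 estimates stayed below 0 in both fits.

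Cells were next divided by layer. The basal gate took cells with at least 2 UMIs of basal markers and more of them than of suprabasal or of luminal markers. It held 2861 and 1791 WT cells and 1240 and 1696 OVX cells. The upper gate took cells led by suprabasal or luminal markers and held 111 and 163 WT cells and 88 and 99 OVX cells. These were all suprabasal in WT and mostly luminal (77 and 82 cells) in OVX, so the upper gate did not hold the same kind of cell in both groups. Between 5 and 232 cells of a library lay near the cut of the basal gate and between 3 and 41 near that of the upper gate. A further 7, 33, 245 and 112 cells, in the order WT 1, WT 2, OVX 1 and OVX 2, entered neither gate.

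The gap was present in both gates, though the basal gate too was unlike between the groups. Its cells held 6429 and 6531 CPM of the suprabasal list in WT against 525 and 468 in OVX. The basal list stood at 44737 and 26567 in WT against 9962 and 9850 in OVX. In the basal gate the members summed to 9516 and 10843 CPM in WT and to 6864 and 6054 in OVX, a fold of 1.58. In the upper gate they summed to 9150 and 10374 against 7055 and 6075, a fold of 1.49. The level in OVX luminal cells was 7097 and 6089, beside 6864 and 6054 in basal cells of the same libraries. In the basal gate edgeR called 0 of 35 members (background 4.56% in either direction), with 11 at an unadjusted p under 0.05, all lower (background 10.1%). DESeq2 called 1 there, and the share of all genes it called was not taken. Both OVX libraries were below both WT libraries for 25 members (background 22.0%), 33 estimates were below 0 (background 51.6%), and the median log2 fold change was -0.85. In the upper gate 29 members had enough counts to be tested, and the other 7 did not pass the filter on low counts. Of the 29, 0 were called by edgeR (background 11.9%) or by DESeq2, and 5 had an unadjusted p under 0.05 (background 10.7%). Their median was -0.80, but the filter bears on which members it covers: Psmc4, with 20 and 32 UMIs in WT and 3 and 3 in OVX, passed it through the WT libraries. Over the 35 members tested in whole libraries, whether or not they passed here, both OVX libraries lay below both WT libraries for 20 (background 19.8%) and above for 3, Psma4, Psmb10 and Psmd10 (background 21.5%). In a fit with no filter on low counts 32 of 35 estimates were below 0 (background 55.8%). Psma4 had 230 and 343 CPM in WT and 551 and 587 in OVX there (log2 fold change 0.89 ± 0.53, edgeR adjusted p = 0.332), from 29 to 57 UMIs per library. Thinned to the smallest sum, Psma4 passed the test at 1.71 (edgeR adjusted p = 0.0479), with 16 members testable.

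**Figure D3:**
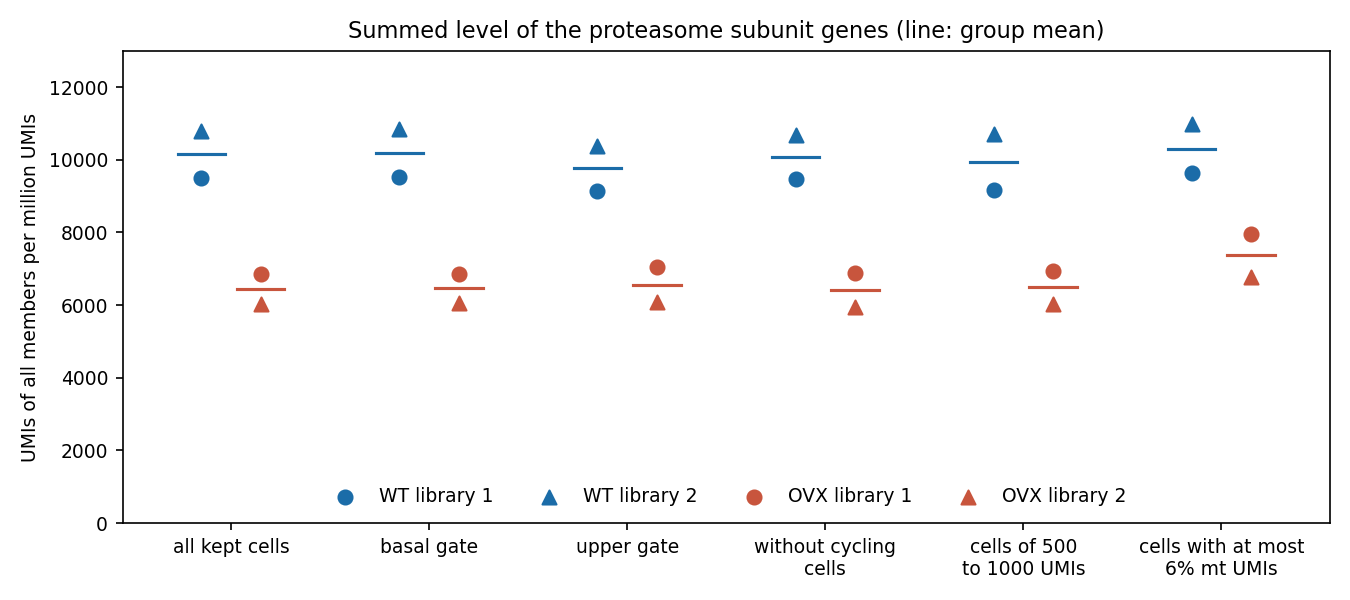
Summed level of the 36 members in CPM, for all kept cells and for 5 selections of cells. Circles and triangles are libraries 1 and 2, WT in blue and OVX in red, and lines are group means of 2 libraries. In each selection both WT libraries, which lie at 9150 or more, are above both OVX libraries, and the highest OVX value is 7964 in cells with at most 6% mitochondrial UMIs.

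Cycling cells are more common in WT, so the sum was taken with and without them. Cycling and other cells of the basal gate had 9504 and 9546 CPM in WT library 1, 10928 and 10732 in WT library 2, 6768 and 6870 in OVX library 1, and 6593 and 5953 in OVX library 2. The groups stayed apart in both kinds of cell, and cycling cells were higher in 2 libraries and lower in the other 2. Depth was brought closer by taking cells of 500 to 1000 UMIs, whose mean depth was 844 and 717 UMIs in WT and 669 and 710 in OVX. Their sums were 9177 and 10699 in WT against 6940 and 6036 in OVX. Cells with at most 6% mitochondrial UMIs numbered 2445 and 1663 in WT but only 230 and 171 in OVX. In these cells the sums were 9634 and 10973 against 7964 and 6777, a fold of 1.40. In all kept cells the fold was 1.57, and the 2 folds were not tested against each other. Mitochondrial UMIs are part of the total. The part that RNA quality has in the gap between groups was not tested. With every cell thinned to 400 UMIs, which left out 0, 43, 650 and 43 cells in the same library order, a cell held on average 3.78 and 4.32 proteasome UMIs in WT against 2.76 and 2.36 in OVX. The share of thinned cells with at least 5 of them was 33.1% and 43.1% against 16.4% and 9.87%. Before thinning these shares were 96.8% and 83.8% against 27.4% and 49.9%, which reverses the order of the libraries within both groups and follows depth.

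Within a group no member was called between the gates, which divide the layers only in part. In WT the basal list still made up 25271 and 17922 CPM in the upper gate, against 44737 and 26567 in the basal gate. Members also had few UMIs in the upper gate of OVX, which limits what this comparison can show. Upper against basal gate, fitted with the library as a block, gave 0 of 35 members in WT (median log2 difference 0.02; background 10.7% in either direction) and 0 in OVX (-0.07; background 8.45%). At an unadjusted p under 0.05 there were 4 members higher and 1 lower in WT (background 19.6% in either direction), and 1 higher and 3 lower in OVX (background 19.1%). The difference between these contrasts, OVX minus WT, was called for 0 members (median -0.13; background 4.43%), with 1 member at an unadjusted p under 0.05 (background 15.1%). Because the basal gate held most cells, cells at or below the lower quartile of the share of suprabasal and luminal UMIs in their library (basal end) were also compared with those above the upper quartile (upper end), a choice made after the gates had been seen. In WT the basal end held 745 and 502 cells and the upper end 731 and 495. In OVX many cells tied at a share of 0, so the basal end, in which no cell had a UMI of either list, held 639 and 655 cells (40.6% and 34.3% of those kept) and the upper end 347 and 412 (22.1% and 21.6%). The ends are therefore unlike between the groups. From the basal to the upper end the summed level went from 9354 to 9622 and from 10429 to 10709 CPM in WT. In OVX it went from 6622 to 6990 and from 5957 to 6198, so it was slightly higher in 4 of 4 libraries. In the main gates the OVX sums also rose, but the WT sums went from 9516 to 9150 and from 10843 to 10374. The upper end was deeper, with medians of 1738, 801, 482 and 781 UMIs against 1452, 755, 402 and 648. In WT it still held 41337 and 22648 CPM of the basal list against 44141 and 25819 at the basal end. Cycling cells there were 41.0% and 25.9% against 74.9% and 54.2%. The part of these differences was not tested. In WT 7 members passed edgeR's test as higher at the upper end, against 10.7% of all genes called higher and 21.9% called in either direction: Psma7, Psmc1, Psmc5, Psmd3, Psmd6, Psmd7 and Psmd12. Psmd7, a lid subunit, went from 320 to 378 in WT library 1 and from 326 to 487 in WT library 2 (log2 difference 0.50 ± 0.10). Psmc5 went from 346 to 451 and from 409 to 462 (0.46 ± 0.10). In OVX 0 members passed (background 6.62%), with 3 higher and 1 lower at an unadjusted p under 0.05 (background 17.3% in either direction). The difference between groups was called for 0 of 35 (background 5.01%), with 2 higher and 2 lower at an unadjusted p under 0.05 (background 16.4%).

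Of the inducible subunits left out by the rule, Psmb8 rose in OVX and Psmb9 did not pass the test. Psmb8 and Psmb9 replace Psmb5 and Psmb6 in the immunoproteasome, a form induced by interferon and common in immune cells. Psmb8 rose from 9.95 and 3.11 CPM in WT to 40.1 and 45.8 in OVX, from 58, 6, 32 and 75 UMIs (log2 fold change 2.47 ± 0.57, edgeR adjusted p = 0.0492; background 2.58% called higher). The adjusted p was 0.0516 in the basal gate, where its levels were 8.77 and 3.45 against 32.2 and 38.0. It was 0.0365 in whole libraries without cells that held non-epithelial markers, and 0.0844 without OVX library 2. The macrophage and dendritic markers that are higher in OVX whole libraries overlapped between groups in the basal gate, at 72.0 and 88.5 against 195 and 51.5 CPM. The part that immune cells have in the Psmb8 difference was not tested. Psmb9 had 7.23 ± 0.77 in WT and 17.7 ± 3.36 in OVX (SD, n = 2; log2 fold change 1.14, edgeR adjusted p = 0.235). Psmb8 ends where Gm20496 lies on the other strand.

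Other genes of the ubiquitin and proteasome system were taken from lists chosen by function, and Psmb8 was their only gene to pass in whole libraries. Of 5 assembly chaperones of the 20S core 0 passed (median log2 fold change -0.66), with Psmg3 lowest at 52.9 ± 7.93 in WT against 28.8 ± 10.5 CPM in OVX (SD, n = 2). Of 6 partners of the 19S particle 0 passed (median -0.78), and Sem1, a small lid subunit not named by the Psm scheme, had 1129 and 1570 in WT against 627 and 507 in OVX (-1.39, edgeR adjusted p = 0.110). Of 5 activators and inhibitors 0 passed (median -0.60): Psme4 had 282 and 94.8 against 77.6 and 89.2, and Psme1 had 140 and 192 against 240 and 231. Of 5 genes for ubiquitin and its activating enzyme 0 passed (median -0.52). The activating enzyme Uba1 had 84.0 and 96.9 against 40.1 and 44.0, while the ubiquitin gene Ubb ran from 322 to 1486 within WT alone. Of 10 shuttle factors and segregase subunits 0 passed (median -0.41), and the shuttle Ubqln1 had 257 and 167 against 91.4 and 89.8. The transcription factors and their processing enzymes (7 genes, 0 passed, median 0.04) had 4 estimates above 0 and 3 below: Nfe2l1 had 148 and 176 in WT and 280 and 324 in OVX (0.77, edgeR adjusted p = 0.324), and Nfe2l2 had 230 and 225 against 334 and 393 (0.54, edgeR adjusted p = 0.491). For both factors each OVX library lay above each WT library. Ngly1, an enzyme that processes NRF1, had 57.3 and 37.8 against 27.5 and 31.2, with each OVX library below each WT library (-0.83, edgeR adjusted p = 0.320).

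Estimates as low as those of the proteasome were also found in other large complexes. The 8 genes of the cytosolic chaperonin CCT, which folds actin and tubulin, had a median of -0.87 (0 passed). Of these, 8 of 8 were below 0 (background 51.4%). Both OVX libraries lay below both WT libraries in all 8 (background 21.2%). The respiratory chain list was taken by gene name and so is not limited to subunits. It had a median of -0.78 over 82 genes, 77 of them below 0 (background 51.4%). Of these genes 1 was called lower (background 2.52%), Ndufa4l2, which held 116 and 85 UMIs in WT and 1 and 0 in OVX. The cytosolic ribosomal protein genes did not follow: their median was 0.13 over 83 genes, with 36 below 0 and 0 called. The ribosomal list made up 77841 and 101156 CPM in WT and 98199 and 110492 in OVX, which overlap. The proteasome estimates are thus near those of CCT and the respiratory chain, and no test of the members against these lists was made.

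**Figure D4:**
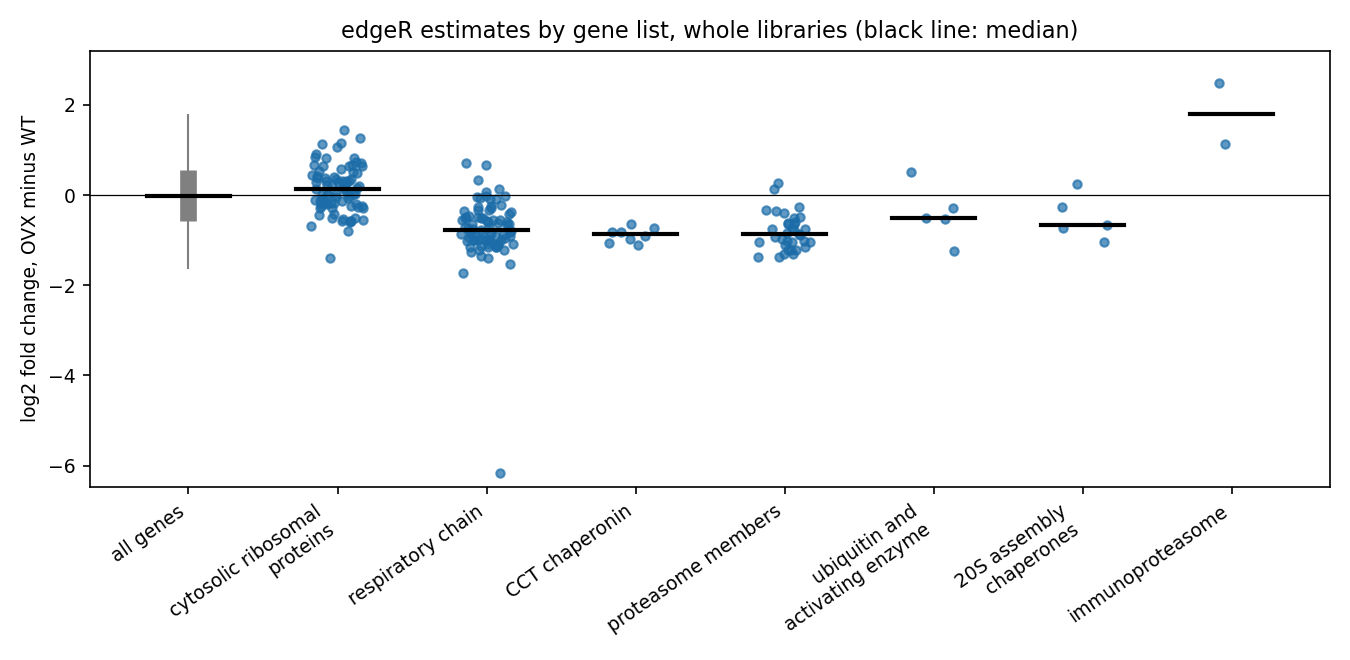
Log2 fold changes, OVX minus WT, by gene list in whole libraries, as edgeR estimated them. Each point is a gene and black lines are medians. For all genes, the thick grey bar spans the middle 50% of genes and the thin line the 5th to 95th percentile. The proteasome, CCT and respiratory chain medians lie at -0.86, -0.87 and -0.78, the ribosomal median at 0.13, and the lone low point is Ndufa4l2.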

How the data were processed

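Drop-seq was run on 2 WT and 2 OVX libraries of vaginal epithelium. For each library the authors deposited a matrix of UMI counts, whole numbers per gene and barcode, not normalized. The submitters' processing notes name the build mm10 and Seurat 2. The sources used here do not give the aligner, annotation, strand setting or barcode rule.

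A barcode was kept with 200 or more detected genes and no more than 20% of its UMIs from mitochondrial genes. No doublet caller was run, so doublets remain. Counts were summed per library, since cells are not replicates, over all kept cells or over layer gates with at least 50 cells in a library. Testing of the sums used edgeR 4.0.16 (TMM, filterByExpr, quasi-likelihood F-test, no covariates, R 4.3.3), OVX minus WT, with Benjamini-Hochberg adjustment over all genes tested and a threshold of 0.05. DESeq2 1.42.0 was an alternative. Layers were compared over 8 sums with the library as a block. Of these fits, the edgeR test of whole libraries was tried on simulated data. Levels are UMIs per 1000000 UMIs (CPM), given as mean ± SD of 2 libraries.

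Members and gene lists were chosen with earlier results of these data known. Named were the catalytic subunits Psmb5, Psmb6, Psmb7 and inducible Psmb10, the member of each class with the largest and the smallest absolute log2 fold change, any member or pathway gene past the threshold, and further members given as values per library and picked after these had been seen. Positions and transcript sequences come from GENCODE vM21 and promoters from RefSeq (GRCm38.p6). Alternatives covered scaling, filters, depth, cell selections, gates, blocks and leaving out each library. A result on another gene of the ubiquitin and proteasome lists is not reported here.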

Additional observations from a re-analysis of the deposited data

Results flagged for a closer look

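The OVX minus WT difference of Nfe2l2, which encodes NRF2, was not the same in the upper gate as in the basal gate by the test of the difference itself (edgeR, library as a block). Nfe2l2 had 230 and 223 CPM in WT and 331 and 403 in OVX in the basal gate, but 247 and 241 against 209 and 192 in the upper gate, from 11 to 58 UMIs per library there. The log2 difference was -1.21 ± 0.32 (edgeR adjusted p = 0.00611), and -0.40 (adjusted p = 0.288) when cells at the basal and upper ends of the marker share were compared. Its adjusted p rose to 0.116 without WT library 1, to 0.0707 without OVX library 1 and to 0.448 without OVX library 2. The upper gate is suprabasal in WT and mostly luminal in OVX, and the part of this change of cell kind was not tested.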

How the results depend on the processing

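In whole libraries the median log2 fold change of the members ranged from -0.97 to -0.70 over 19 fits and the log2 ratio of the summed level from -0.75 to -0.48 over 13. In the basal gate these ranged from -0.996 to -0.69 and from -0.75 to -0.48, and in the upper gate from -1.08 to -0.55 and from -0.68 to -0.43. The count of members called lower in whole libraries was 0 as reported, 1 with DESeq2, 1 with no filter on low counts (Psmb6 in both) and 0 to 7 when a library was left out. In the basal gate it was 1 with DESeq2 and 0 to 5 when a library was left out, and in the upper gate 0 to 3. Leaving out WT library 1 gave an upper gate median of -1.08 and leaving out OVX library 2 one of -0.64, against -0.80. In the upper gate 1 member was called higher after thinning. For upper against basal cells in WT, thinning gave a median of -0.22. The comparison of the basal and upper ends gave 7 members called higher (10.7% of all genes). Signs turned for Psma3 (-0.47 without WT library 1, -0.0072 without OVX library 1, up to 1.11 without WT library 2), for Psma4 without OVX library 2 (-0.10, up to 0.55 without OVX library 1; basal gate -0.13 and 0.57), for Psmb10 after thinning (0.041) and for Psmd3 in cells of 500 to 1000 UMIs (0.0039). Psmb7 turned to 0.074 without WT library 2 and to 0.073 in cells of 500 to 1000 UMIs; in the basal gate it turned to 0.13 (-0.61 without WT library 1), to 0.16 and, with the basal end, 0.071. The causes were not tested. The adjusted p of Psmb8 in whole libraries was 0.0658 with at least 500 genes per cell and 0.139 in cells of 500 to 1000 UMIs. With the replicate number as a block, edgeR called 0 members and gave medians of -0.81 in whole libraries, -0.78 in the basal gate and -0.86 in the upper gate, and 1 member had an unadjusted p under 0.05 in whole libraries. Libraries with the same number deviated in opposite ways (r = -0.57 across 11495 genes). With 2 libraries per group each pairing gives this r or its mirror image, so the correlation cannot settle which libraries pair. WT library 1 and OVX library 2 were also the deeper ones of their groups per cell. The crossed pairing, WT 1 with OVX 2, was picked from this same correlation, so its calls are no support. It called 23 members lower in whole libraries (15.1% of all genes) and 18 in the basal gate (14.5% of all genes). The basal and upper ends, the windows of depth and of mitochondrial share and the crossed pairing were chosen after the data had been seen. In the upper gate, the fits with at least 500 genes, stricter gates, cells of 500 to 1000 UMIs and at most 6% mitochondrial UMIs were not run, since a library held fewer than 50 cells. Depth limits the members with few UMIs, above all in OVX library 1.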

Other observations

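In OVX the upper gate, which held mostly luminal cells there, differed from basal cells in ribosomal protein genes and not detectably in proteasome genes. The cytosolic ribosomal protein genes summed to 101602 and 114628 CPM in OVX basal cells and to 67086 and 63180 in OVX upper cells. In WT they summed to 77662 and 100808 in basal cells and to 82895 and 104400 in upper cells. In OVX 50 of 78 ribosomal protein genes were called lower in upper than in basal cells (edgeR, library as a block). The background was 8.45% of all genes in either direction. In WT 3 were called higher (background 10.7% in either direction). The difference between the groups was called lower for 46 (background 4.43% in either direction). For the proteasome members each of these counts was 0 of 35. With cells at the basal and upper ends of the marker share, the difference was called lower for 39 of 78 ribosomal protein genes and 0 of 35 members. The summed level of the members was 7055 and 6075 CPM in OVX upper cells and 6864 and 6054 in OVX basal cells.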
